A study of Mus musculus with 2 samples.

Results

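The mouse genes Ly6a, Ly6c1, Ly6d and Ly6e belong to the Ly6 family, and their rows in the deposited tables are described here: 4 of the 18309 genes that the tables hold. They were chosen by name. Ly6a encodes Sca-1. The cells come from small-intestinal co-cultures of fibroblasts with crypts, the pits of the gut wall where its stem cells divide, taken from 10-week-old C57BL6 mice and kept in organoid growth media. They were read by Drop-seq, in which droplets pair each cell with a barcoded bead. In the condition called Ptger4-ON only DMSO vehicle was given, and growth was as spheroids. In Ptger4-OFF the vehicle carried ONO-AE3-208, which blocks EP4, the prostaglandin E2 receptor that Ptger4 encodes, at 10 µM every other day, and growth was as budding organoids. The labels name no altered allele in either condition, and trypsin with EDTA released the cells of both. Each condition is 1 library that pools 6 cultures. There is thus no replicate error, and the conditions cannot be compared by a test. All brackets are 95% intervals of counting error, which leave out the variation between cells, cultures and mice.

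Ly6 proteins are small, disulfide-rich proteins of the three-finger fold, and most are held at the outer cell surface by a glycosylphosphatidylinositol (GPI) anchor. Sca-1 is best known as a marker of mouse blood stem cells, and it also marks the gut epithelium during repair, when cells take on a state that resembles the fetal gut. Several Ly6 genes, Ly6a and Ly6e among them, are known to respond to interferons. Ly6c1 is known from myeloid and endothelial cells, Ly6d from early B cells and squamous epithelia, and Ly6e from many tissues, where it restrains some viruses at entry.

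A cell was put in the fibroblast class when its UMIs (unique molecules counted) of the collagen genes Col1a1, Col1a2 and Col3a1 outnumbered those of Epcam, Krt8 and Krt18, and in the epithelial class when the reverse held. This gave 585 epithelial and 276 fibroblast cells in Ptger4-ON and 1199 and 360 in Ptger4-OFF. A further 15 and 1 cells were in neither class. Median depth was 4649 and 4161 UMIs in the epithelial class, and 4879.5 and 4473.5 in the fibroblast class. The libraries shared 1 barcode. The 16 Ptger4-ON and 6 Ptger4-OFF barcodes over 50000 UMIs were all epithelial and held 22.9% and 4.97% of that class's UMIs; they are called deep barcodes here. Col1a1 had a UMI in 89.4% and 84.8% of fibroblast cells at equal depth, and Epcam in 88.5% and 95.1% of epithelial cells, as the class rule requires.

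The 4 genes lie on chromosome 15 within 286.8 kb (GRCm38, GENCODE vM21). Ly6d is at 74762056 to 74763620 on the minus strand, Ly6e at 74955051 to 74959905 on the plus strand, Ly6a at 74994877 to 74998031 on the minus strand, and Ly6c1 at 75044018 to 75048830 on the minus strand. The relatives Psca, Lynx1, Ly6k and Gml sit in the same stretch or close to it. Ly6c1 has a near copy, Ly6c2, at 75108158 to 75111970 on the minus strand. Their transcripts were 97.57% identical over 822 aligned bases and shared a run of 188 bases, so reads of the pair may not be told apart and Ly6c1 counts are uncertain to that extent. The row of Ly6c2 held 7 and 1 UMIs in the epithelial class. Ly6a and Ly6c1 transcripts were 85.5% identical with a longest shared run of 48 bases, and no other pair of the 4 genes shared more than 11 bases in a row.

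The 250 bases before the start of Ly6c1 and of Ly6c2 are shown (RefSeq, GRCm38.p6, 5′ to 3′ on the gene's strand), because these near copies are the pair whose reads may be exchanged while their upstream sequence differs more. Of the 4 genes, 1 had a promoter in the sequence table. Capitals mark matches to TATAAA and CCAAT, searched on both strands along with TTCNNNGAA (the GAS motif of interferon-gamma signalling), TGANTCA (AP-1) and GGAATG (TEAD).
Ly6c1, chr15:75048838-75049087, minus strand: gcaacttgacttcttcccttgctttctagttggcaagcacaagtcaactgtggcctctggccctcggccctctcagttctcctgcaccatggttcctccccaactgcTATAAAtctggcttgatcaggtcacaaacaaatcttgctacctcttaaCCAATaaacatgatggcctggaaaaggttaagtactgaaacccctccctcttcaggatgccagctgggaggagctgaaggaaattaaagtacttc
Ly6c2, chr15:75111972-75112221, minus strand: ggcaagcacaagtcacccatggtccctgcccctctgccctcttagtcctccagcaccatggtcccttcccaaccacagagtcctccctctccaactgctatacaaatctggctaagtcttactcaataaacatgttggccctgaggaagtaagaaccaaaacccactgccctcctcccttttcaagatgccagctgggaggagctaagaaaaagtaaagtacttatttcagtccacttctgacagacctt
The windows were 80.95% identical over 210 aligned bases. Ly6c1 had TATAAA 143 and CCAAT 95 bases before its start, and none of the 5 motifs was in the Ly6c2 window. Over 32851 windows of this length, TATAAA was in 12.37%, CCAAT in 33.85%, TTCNNNGAA in 7.02%, TGANTCA in 6.749% and GGAATG in 12.64%. The marked matches do not overlap.

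In the epithelial class as a whole, 3 of the 4 genes were higher in Ptger4-ON and Ly6d stood at nearly the same level in both libraries. Ly6a had 633 CPM [613 to 655] in Ptger4-ON and 195 CPM [185 to 205] in Ptger4-OFF (CPM, UMIs scaled to a class total of 1000000), which is 3.25-fold [3.06 to 3.45] higher in Ptger4-ON. Ly6c1 had 29.8 and 2.37 CPM from 165 and 18 UMIs, 12.6-fold [7.73 to 21.8] higher in Ptger4-ON. In Ptger4-ON 1 cell carried 58 of the 165 Ly6c1 UMIs, and 50 cells against 13 had any. Without the richest cell of each library the log2 ratio OFF/ON of Ly6c1 was -3.28, beside -3.62 with all cells. Ly6e had 448 [431 to 466] and 267 [255 to 279] CPM, 1.68-fold [1.58 to 1.78] higher in Ptger4-ON.

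Ly6d had 215 [203 to 227] and 195 [185 to 205] CPM, with a ratio OFF/ON of 0.909 [0.842 to 0.982]. The interval stops short of 1, but the ratio was 0.99 without the barcodes over 50000 UMIs and 0.59 with equal weight for each cell. Both Ly6a and Ly6c1 were past 2-fold higher in Ptger4-ON, where 4.18% of the 11618 genes with at least 20 UMIs were, and no member was past 2-fold higher in Ptger4-OFF, where 2.89% were. The deep barcodes held 1409 of the 3505 Ly6a UMIs of Ptger4-ON and 130 of the 1483 of Ptger4-OFF. Without them the log2 ratio of Ly6a was -1.39 in place of -1.70.

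Sums over a class hide where the transcripts sit, so the epithelial cells of both libraries were clustered together with all Ly6 family genes left out. The 8 clusters are called by their leading genes. A fetal-like cluster of 100 Ptger4-ON and 51 Ptger4-OFF cells was led by Clu, F3, Krt23, Tff1, Anxa1 and Sprr1a. Listed fetal-like markers summed to 11690 CPM there, and listed goblet markers to 7994 CPM, so the name does not cover all of its markers. A cluster led by Fabp5, Wfdc2 and S100a6 held 102 and 34 cells, with 9 and 2 of the deep barcodes. The fetal-like markers Msln and Anxa3 were also among its leading genes, and its listed fetal-like markers summed to 2186 CPM. An enterocyte-like cluster led by Apoa1 and Apoa4 held 18 and 84 cells, and a cluster with both Paneth and goblet markers, led by Defa17 and Spink4, held 73 and 71. The others were a cycling-like cluster led by Nusap1 (124 and 338 cells), a cluster led by Ifitm3, Sparc and Mcm genes of DNA replication (134 and 434), a cluster led by Ndrg1 (33 and 169) and an enteroendocrine-like cluster led by Chgb (1 and 18). The cell numbers serve as denominators here and are not a result.

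Ly6a was concentrated in the Clu-led and Fabp5-led clusters. It had 1214 CPM in Ptger4-ON and 1834 in Ptger4-OFF in the Clu-led cluster, and 1204 and 802 CPM in the Fabp5-led cluster. Next came the Defa17-led cluster with 379 and 152 CPM (219.6 and 75.9 CPM without deep barcodes) and the enterocyte-like cluster with 216 and 145 CPM. The cycling-like cluster had 78.3 and 18.6 CPM, the Ifitm3-led cluster 42.6 and 8.56, and the Ndrg1-led cluster 35.9 and 20.2. Within Ptger4-ON the 2 highest clusters do not differ beyond counting error with all barcodes, but without deep barcodes Ly6a had 1244 CPM [1170.3 to 1321] in the Clu-led and 815 CPM [759 to 875] in the Fabp5-led cluster. In Ptger4-OFF the Clu-led cluster stood apart from the Fabp5-led cluster.

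**Figure D1:**
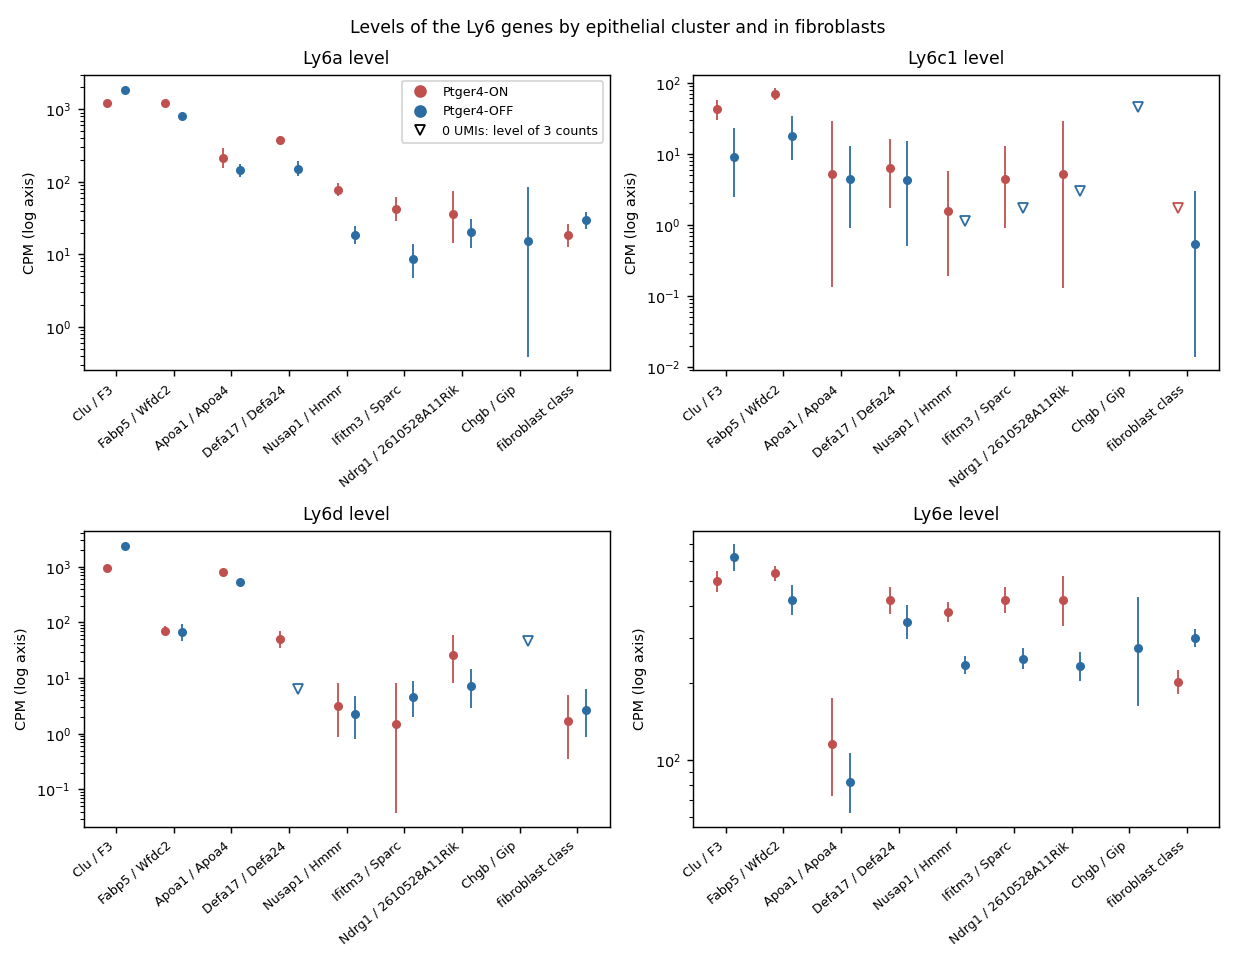
Level of each Ly6 gene (CPM, log axis) in the 8 epithelial clusters, named by 2 leading genes, and in the fibroblast class, in Ptger4-ON (red) and Ptger4-OFF (blue), with 95% Poisson intervals. Open triangles stand for the level of 3 counts where there were 0 UMIs, and points with under 10 cells are left out. Ly6a is at 802 CPM or more in the Clu-led and Fabp5-led clusters of both libraries, Ly6d is highest in the Clu-led and Apoa1-led clusters, and Ly6e spans a narrow range outside the Apoa1-led cluster.

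Ly6c1 was found in the same 2 clusters as most Ly6a, at 70.2 and 17.7 CPM in the Fabp5-led and 42.4 and 8.98 CPM in the Clu-led cluster. Elsewhere it did not exceed 6.29 CPM in either library. Without deep barcodes Ly6c1 had 46.1 and 15.03 CPM in the Fabp5-led cluster. Ly6d had a different place. It was highest in the Clu-led cluster, at 954 CPM in Ptger4-ON and 2391 CPM in Ptger4-OFF, and next in the enterocyte-like cluster, at 795 and 532 CPM, whereas the Fabp5-led cluster, rich in Ly6a, had 71.4 and 66.7 CPM, or 66.0 and 27.6 CPM without deep barcodes. In the enterocyte-like cluster of Ptger4-ON a barcode over 50000 UMIs held much of this: without deep barcodes Ly6d was at 500.4 and 522 CPM there, and Ly6a at 71.5 and 155 CPM, which turns the direction of both between the libraries.

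Ly6d was scarce in the cycling-like cluster, with 3.16 and 2.24 CPM, and in the Ifitm3-led cluster, with 1.47 and 4.56 CPM. In the Defa17-led cluster it had 32 UMIs in Ptger4-ON and 0 in Ptger4-OFF, at least 7.95-fold higher in Ptger4-ON against 3 counts over that cluster, but without the deep barcodes 8 UMIs remained in Ptger4-ON. Ly6e was found in every cluster. Over the clusters with at least 10 cells in the library it ranged from 116 to 537 CPM in Ptger4-ON and from 81.8 to 619.7 CPM in Ptger4-OFF, with the enterocyte-like cluster lowest in both. In the other clusters of that size its lowest values were 378 and 232 CPM. Without deep barcodes Ly6e had 30.6 CPM in Ptger4-ON, from 3 UMIs, and 87.9 CPM in Ptger4-OFF in the enterocyte-like cluster, which turns the direction between the libraries there.

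**Figure D2:**
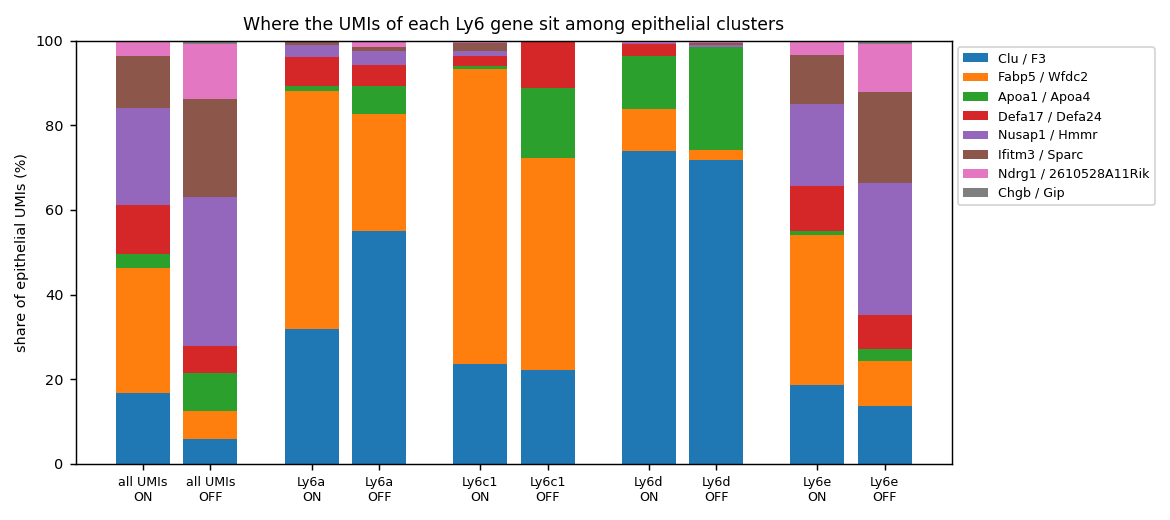
Share of the epithelial UMIs of each Ly6 gene (%) that lies in each cluster, for Ptger4-ON and Ptger4-OFF, beside the share of all epithelial UMIs (left pair of bars). The Clu-led and Fabp5-led clusters (blue and orange) hold 88.1% of Ly6a UMIs in Ptger4-ON and 82.7% in Ptger4-OFF, from 46.2% and 12.6% of all UMIs, while Ly6e UMIs are spread over all clusters.

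The Clu-led and Fabp5-led clusters together held 46.2% of all epithelial UMIs in Ptger4-ON and 12.6% in Ptger4-OFF. They held 88.1% and 82.7% of the UMIs of Ly6a. To set the libraries side by side with the same mixture of clusters, the level of each cluster was weighted by the cluster shares of 1 library in both. With the Ptger4-ON mixture Ly6a was 1.11-fold higher in Ptger4-ON, and with the Ptger4-OFF mixture 1.22-fold, in place of 3.25-fold. Ly6c1 stayed higher in Ptger4-ON, by 4.06-fold and 4.35-fold. Ly6e was higher in Ptger4-ON by 1.23-fold and 1.46-fold. For Ly6d the direction turned: its ratio OFF/ON was 2.04 with the Ptger4-ON mixture and 1.39 with the Ptger4-OFF mixture. These weighted values were added after the data had been seen, and the clusters come from the same cells. They include the deep barcodes and were not taken without them. Without deep barcodes Ly6a had 815 and 809 CPM in the Fabp5-led and 1244 and 1834 CPM in the Clu-led cluster. In the cycling-like cluster it then had 97.3 and 18.6 CPM. How far the weighted ratios rest on deep barcodes was not tested.

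Within clusters, the 4 genes did not move as a block. In the Clu-led cluster Ly6d was 2.51-fold [2.29 to 2.74] higher in Ptger4-OFF, Ly6a 1.51-fold [1.38 to 1.66] and Ly6e 1.24-fold [1.06 to 1.44], whereas Ly6c1 was 4.72-fold [1.70 to 18.2] higher in Ptger4-ON from 39 and 4 UMIs. With equal weight for each cell the Ly6c1 ratio OFF/ON was 0.404 in place of 0.212. In this cluster 3.78% of 7587 genes were past 2-fold higher in Ptger4-OFF, as Ly6d was, and 5.55% in Ptger4-ON, as Ly6c1 was. The median cell had 6.13 and 7.19 Ly6a UMIs per 10000 UMIs, and 1.22 and 4.24 Ly6d UMIs. In this cluster the 10 cells richest in Ly6d held 72.3% of its UMIs in Ptger4-ON and 86.5% in Ptger4-OFF. For Ly6a the 10 richest cells held 52.8% and 84.9%. The ratios thus rest largely on few cells, which the intervals leave out.

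The higher Ly6a of the Clu-led cluster in Ptger4-OFF depends on whether the Ly6 family genes enter the clustering. With them left out the ratio was 1.31 with equal weight for each cell, 1.47 without deep barcodes and 1.55 with finer clusters. When the Ly6 family genes were kept in the clustering, the cluster with the highest Clu level grew to 177 and 74 cells and its Ly6a ratio was 1.01 [0.941 to 1.08], with 1572 and 1588 CPM. Its Ly6e ratio was then 1.03 [0.912 to 1.16]. In that setting the Ly6 genes help to choose the cells, so it cannot tell which ratio describes the cluster better. Ly6d stayed higher in Ptger4-OFF under each of these settings, with ratios from 2.06 to 3.59.

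**Figure D3:**
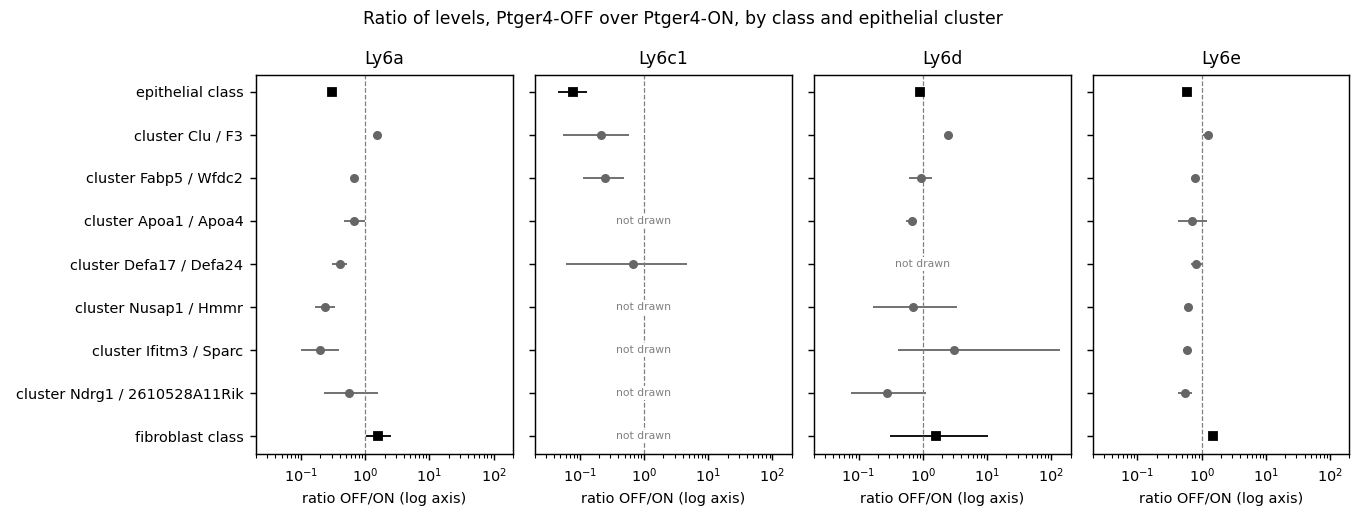
Ratio of the level in Ptger4-OFF over that in Ptger4-ON (log axis) for each Ly6 gene, in the epithelial class and the fibroblast class (squares) and in 7 epithelial clusters (circles), with exact 95% intervals of counting error; the dashed line is a ratio of 1. A row is not drawn where a library had 0 UMIs or both had 3 or fewer, and the cluster led by Chgb is left out for its 1 Ptger4-ON cell. With all barcodes Ly6a and Ly6e lie left of the line in every epithelial cluster drawn except the Clu-led one, and right of it in fibroblasts.

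In the other clusters, with all barcodes, Ly6a and Ly6e were higher in Ptger4-ON. For Ly6a the interval included 1 in the Ndrg1-led cluster, and in the enterocyte-like cluster the direction of both genes turned without deep barcodes. Ly6a was 4.2-fold [2.96 to 6.03] higher in the cycling-like cluster from 99 and 50 UMIs, 4.98-fold [2.58 to 9.99] in the Ifitm3-led cluster from 29 and 15 UMIs, and 2.50-fold [1.91 to 3.29] in the Defa17-led cluster, where its levels without deep barcodes were those given above. In the Fabp5-led cluster it was 1.5-fold [1.35 to 1.67] higher in Ptger4-ON, but without deep barcodes it had 815 and 809 CPM there. For Ly6e the Ptger4-ON level was 1.61-fold [1.42 to 1.81] higher in the cycling-like, 1.69-fold [1.46 to 1.97] in the Ifitm3-led, 1.81-fold [1.39 to 2.34] in the Ndrg1-led and 1.27-fold [1.09 to 1.48] in the Fabp5-led cluster. The interval for Ly6e included 1 in the Defa17-led and enterocyte-like clusters.

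Counting cells in place of transcripts, each cell was thinned to 1000 UMIs so that depth was equal, which left out 53 and 47 epithelial cells and 22 and 11 fibroblasts. A UMI of Ly6a was then seen in 121 of 532 epithelial cells in Ptger4-ON, 22.7% [19.2 to 26.5], and in 64 of 1152 in Ptger4-OFF, 5.56% [4.30 to 7.04]. For Ly6d the shares were 7.71% [5.59 to 10.3] and 3.30% [2.34 to 4.50], although its summed level was nearly even, and for Ly6c1 1.69% [0.776 to 3.19] and 0.347% [0.0947 to 0.887]. Ly6e was seen in 33.5% [29.5 to 37.6] and 21.2% [18.9 to 23.7]. Unthinned, the shares were 41.2% and 10.6% for Ly6a, 8.55% and 1.08% for Ly6c1, 17.4% and 6.09% for Ly6d and 69.7% and 53.3% for Ly6e. Ly6d transcripts were packed into few cells: the 10 cells richest in the gene held 59.2% of its epithelial UMIs in Ptger4-ON and 66.0% in Ptger4-OFF, against 21.7% and 14.5% for Ly6e.

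**Figure D4:**
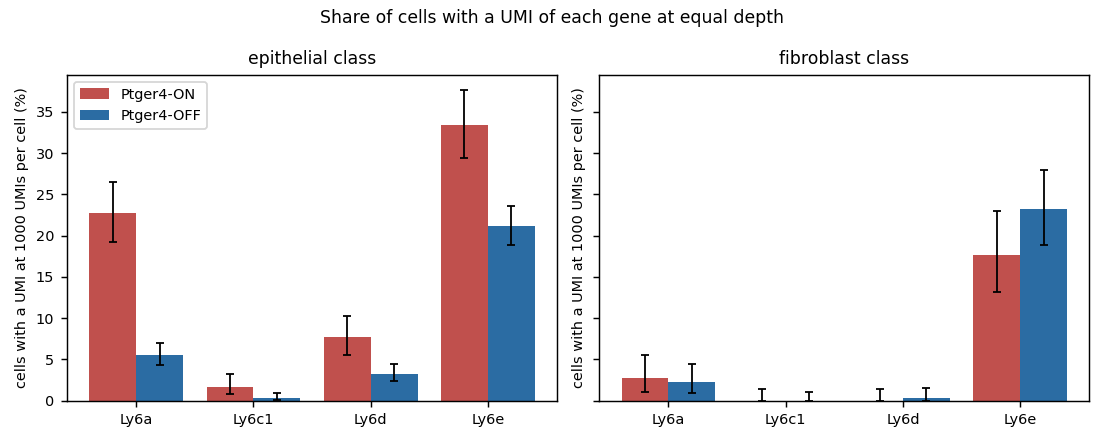
Share of cells with at least 1 UMI of each Ly6 gene (%) after every cell was thinned to 1000 UMIs, in the epithelial class (left) and the fibroblast class (right), for Ptger4-ON (red) and Ptger4-OFF (blue), with exact 95% binomial intervals. In the epithelial class the Ptger4-ON bar is the taller for all 4 genes, and in fibroblasts Ly6e is the gene seen in more than 3% of cells.

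Shares were also taken within clusters. In the Clu-led cluster Ly6a was seen in 44.7% [34.4 to 55.3] and 48.0% [33.7 to 62.6] of thinned cells, and in the Fabp5-led cluster in 52.2% [41.4 to 62.9] and 58.8% [40.7 to 75.4], so the intervals of the libraries overlap in both clusters. In the cycling-like cluster it was seen in 11 of 116 cells in Ptger4-ON, 9.48% [4.83 to 16.3], and in 2 of 332 in Ptger4-OFF, 0.602% [0.073 to 2.16]. Ly6d was seen in 28.7% [19.9 to 39.0] and 38% [24.7 to 52.8] of cells of the Clu-led cluster.

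Ly6a was seen more often in cells with a Ly6d UMI than in cells without one. In Ptger4-ON a Ly6a UMI was seen in 18 of 41 Ly6d-positive cells, 43.9% [28.5 to 60.3], and in 21.0% [17.5 to 24.9] of the 491 others. In Ptger4-OFF it was seen in 14 of 38, 36.8% [21.8 to 54.0], and in 4.49% [3.35 to 5.87] of the 1114 others. Both genes were rich in the Clu-led cluster. The Ly6a shares of Ly6d-positive cells were no higher than those of all thinned cells of that cluster, given above. Co-detection beyond a shared cluster was not tested. Of the cells with a Ly6c1 UMI, 8 of 9 and 4 of 4 also had Ly6a, and 0 and 0 had Ly6d. With so few cells the intervals for Ly6d reach 33.6% and 60.2%, so no separation of Ly6c1 from Ly6d is read from them. Unthinned, 16 and 6 epithelial cells had all 4 genes. No thinned epithelial cell had all 4 genes, and 49.8% and 73.6% had none of them.

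The partners of each gene differed as its clusters did. Ly6a was seen in 47.9% of cells with a UMI of Clu, a marker of the revival state, and in 13.8% of cells without in Ptger4-ON, and in 33.0% and 3.03% in Ptger4-OFF. With and without Lgr5, the receptor that marks crypt stem cells, the shares were 10.0% and 23.8% in Ptger4-ON, and 3.73% and 5.80% in Ptger4-OFF, with overlapping intervals in both libraries. Unthinned they were 43.1% and 40.4%, and 13.3% and 9.08%, so no order is read from them. Ly6d was seen in 1.83% of cells with Mki67, a marker of cycling cells, and in 10.3% without in Ptger4-ON, and in 0.826% and 4.44% in Ptger4-OFF. Ly6e was seen in 36.6% of cells with Mki67 and 32.1% of cells without in Ptger4-ON, and in 20.4% and 21.5% in Ptger4-OFF. With Fabp1, a fatty acid carrier of enterocytes, Ly6e was seen in 11.1% and 34.2% in Ptger4-ON, and in 11.0% and 22.5% in Ptger4-OFF.

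In fibroblasts the picture was different: Ly6e was plentiful and higher in Ptger4-OFF, while the other 3 genes were scarce. Ly6e had 202 CPM [182 to 225] in Ptger4-ON and 299.9 CPM [275 to 326] in Ptger4-OFF, a ratio OFF/ON of 1.48 [1.29 to 1.70]. Its shares of thinned cells were 17.7% [13.2 to 23.0] and 23.2% [18.9 to 28.0], which overlap. Of the 6 fibroblast clusters, the 5 deeper ones each had more Ly6e in Ptger4-OFF, with ratios from 1.36 to 1.71. The interval was 0.965 to 2.73 in the cluster led by Myl9, which includes 1. In the cluster led by Hmmr it was 1.02 to 2.24. The shallow cluster had a median of 1487 UMIs per cell, with Krt8 and Lgals4 among its leading genes. This cluster had 300.1 and 237.6 CPM of Ly6e from 8 and 16 UMIs. Without it the class ratio was 1.5.

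Ly6a had 32 and 54 UMIs in fibroblasts, 18.3 CPM [12.5 to 25.9] and 29.4 CPM [22.1 to 38.4], a ratio OFF/ON of 1.60 [1.02 to 2.56] that became 0.917 with equal weight for each cell. In the fibroblast cluster led by Il33 and Ogn it had 17.3 and 54.9 CPM from 6 and 27 UMIs, and in the cluster led by Pla2g7 and Grem1 21.8 and 47.0 CPM from 7 and 12 UMIs. It had 24.1 and 28.3 CPM in the cluster led by the cycling genes Hmmr and Prc1, 11.0 and 9.90 in that led by Chodl, 17.2 and 12.5 in that led by Myl9, and 150.1 and 14.9 CPM, from 4 and 1 UMIs, in the shallow cluster. Ly6d had 3 and 5 UMIs and Ly6c1 0 and 1, so no fold is given for Ly6c1. Neither of the 2 members with at least 20 UMIs, Ly6a and Ly6e, was past 2-fold in fibroblasts, where 1.71% of 9759 genes were past 2-fold higher in Ptger4-ON and 1.55% in Ptger4-OFF.

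Free RNA from epithelial cells can put UMIs into fibroblast droplets, and its size was read from 6 epithelial genes outside the class rule (Krt19, Cdh1, Cldn3, Cldn7, Lgals4 and Phgr1). Their fibroblast level was 0.821% to 1.88% of their epithelial level in Ptger4-ON and 1.68% to 2.76% in Ptger4-OFF. Ly6d stood at 0.801% and 1.39%, at or below that range, and its fibroblast UMIs are read as background. Ly6a stood at 2.90% and 15.1%, above the range in both libraries, and Ly6e at 45.2% and 112%. In fibroblasts without a UMI of Epcam, Krt8 or Krt18, Ly6a had 21.0 CPM [12.8 to 32.5] and 24.6 CPM [16.3 to 35.5]. The share of thinned fibroblasts with Ly6a, 2.76% and 2.29%, was no higher than that with Epcam, 2.76% and 5.73%, and is not read as a share of expressing cells.

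Since Ly6a and Ly6c1 also mark blood and endothelial cells, markers of these were summed. Of 12 leukocyte markers 8 were in the tables, with 6.14 and 5.39 CPM in the epithelial class and 20.6 and 12.5 CPM in fibroblasts. Ptprc, the pan-leukocyte CD45 gene, had 1 and 0 UMIs in the epithelial class and 0 in fibroblasts, and Cd3e had 0 throughout. Of 10 endothelial markers 6 were in the tables, with 11.9 and 17.2 CPM in the epithelial class, mostly from Esam and Egfl7, and 12.6 and 8.71 CPM in fibroblasts. Kdr, Tek and Plvap were at 0 in the epithelial class. Among the 50 epithelial cells with Ly6c1 in Ptger4-ON, 2 had a leukocyte marker UMI and 11 an endothelial one. Of the 13 in Ptger4-OFF, 4 had a leukocyte marker UMI and 5 an endothelial one. The cells with Ly6c1 were deeper than the others, with medians of 14850 against 4197 UMIs in Ptger4-ON and 36769 against 4128.5 in Ptger4-OFF. The part of depth in these counts was not tested.

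Among the wider family, 27 of 40 listed Ly6 and urokinase-receptor-like genes were in the tables. In the epithelial class 13 had at least 20 UMIs, the 4 members included, of which 11 were lower and 2 higher in Ptger4-OFF. Their median log2 ratio was -0.57, beside -0.04 over all genes. The ratio intervals of Lynx1, Ly6g6d, Ly6g6e and Gml, which were lower, and of Ly6k, which was higher, included 1. Lypd8, which keeps motile bacteria away from the gut surface, was abundant at 1111 and 1292 CPM, 1.16-fold [1.13 to 1.20] higher in Ptger4-OFF. Its highest level was in the enterocyte-like cluster, 7452 and 3354 CPM, where Ptger4-ON had 18 cells, 1 of them a deep barcode. The deep barcodes held 2114 of the 6148 epithelial Lypd8 UMIs of Ptger4-ON, where 1 cell had 971. In Ptger4-OFF they held 776 of 9824. The Lypd8 levels without deep barcodes were not taken. Plaur, the urokinase receptor, had 27.3 and 8.81 CPM, 3.10-fold [2.31 to 4.19] higher in Ptger4-ON.

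Psca and Gml, neighbours of Ly6d on chromosome 15, resembled it in place. Psca, the prostate stem cell antigen gene, had 33.1 and 26.8 CPM in the class, and 128 and 353 CPM in the Clu-led cluster. Gml had 15.7 and 15.3 CPM, and 57.6 and 173 CPM in the Clu-led cluster. Both were thus higher in Ptger4-OFF inside the cluster, as Ly6d was, with class ratios of 0.811 [0.661 to 0.996] and 0.97 [0.728 to 1.30]. The other epithelial family genes had few counts: Lynx1 4.70 and 3.16 CPM, Ly6g6d 3.61 and 2.37, Ly6g6e 3.61 and 3.55, Ly6g6c 2.89 and 0.789, and Ly6k 1.08 and 2.50 CPM.

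In fibroblasts 7 family genes had at least 20 UMIs, Ly6a and Ly6e included, with 6 of them higher in Ptger4-OFF. Their median log2 ratio was 0.44, beside 0.02 over all genes. None was past 2-fold, while of all measured genes 1.71% were past it in Ptger4-ON and 1.55% in Ptger4-OFF. Ly6k had 47.6 and 64.8 CPM, a ratio of 1.36 [1.02 to 1.82], and was among the leading genes of the cluster led by Il33. Cd59a, an inhibitor of the complement attack complex, had 37.3 and 41.9 CPM, with a ratio interval of 0.798 to 1.59. Plaur had 11.5 and 12 CPM and Lynx1 9.17 and 5.44 CPM, with ratio intervals of 0.544 to 2.02 and 0.241 to 1.39. Lypd8 had 16.6 and 28.3 CPM, which is 1.5% and 2.19% of its epithelial level and inside the range of free RNA.

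Because Ly6a and Ly6e are interferon-responsive, a list of 50 interferon-stimulated genes was set beside them. In fibroblasts 40 were measured and 39 were higher in Ptger4-OFF, 12 of them past 2-fold, where 1.55% of all genes measured in fibroblasts were; the median log2 ratio was 0.67, beside 0.02 over all genes, and the list summed to 2853 and 4403 CPM. Rsad2 had 1 and 23 UMIs, the chemokine gene Cxcl10 4 and 66, and Ifit1 13 and 55. At the other end, Oas1a had 11.5 and 10.3 CPM, Psmb8 47.0 and 48.4, and Parp14 12 and 14.2. The ratios of Ly6a, 0.67 on the log2 scale, and Ly6e, 0.57, lay close to the median of the list. That of Ly6a came from 32 and 54 UMIs, with a log2 interval of 0.02 to 1.36. With equal weight for each cell it was -0.12. In fibroblasts without a UMI of Epcam, Krt8 or Krt18, Ly6a had 21.0 and 24.6 CPM, with overlapping intervals. The place of Ly6a in the list is thus uncertain. Among fibroblast clusters the pattern of the list was not uniform: in the one led by Hmmr 2 of 7 measured list genes were higher and 5 lower in Ptger4-OFF.

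In the epithelial class the list was nearly even in sum. Of 33 measured genes 25 were lower and 8 higher in Ptger4-OFF; the median log2 ratio was -0.37, with 4 past 2-fold higher in Ptger4-ON and 1 in Ptger4-OFF, beside 4.18% and 2.89% of all genes measured in the class. Its summed level was 1045 and 1019 CPM. Gbp7, Xaf1 and Usp18 had the lowest log2 ratios, -2.04, -1.32 and -1.07, from 22 and 7, 35 and 19, and 14 and 9 UMIs. Ifitm3 had the highest, with 41.4 and 118 CPM, followed by Cxcl10 with 2.89 and 4.60 CPM and Ifitm2 with 99.4 and 144 CPM. In the Clu-led cluster 15 of 25 measured genes were higher in Ptger4-OFF, with sums of 1584 and 1873 CPM. Sums were also higher in Ptger4-OFF in the cycling-like (818 and 902 CPM) and Ifitm3-led (994 and 1076) clusters. The same held in the Defa17-led (889 and 980) and Ndrg1-led (769 and 838) clusters. Most single genes did not go with these sums. In the cycling-like cluster 8 were higher and 13 lower in Ptger4-OFF, and in the Ifitm3-led cluster 9 and 10. The Defa17-led cluster had 8 and 8, and the Ndrg1-led cluster 7 and 8. The median log2 ratios were -0.10, -0.19, -0.06 and -0.23, in that order. The Fabp5-led cluster had 939 and 924 CPM. In the enterocyte-like cluster 1 of 17 measured genes was higher in Ptger4-OFF, with sums of 1863 and 1136 CPM.

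**Figure D5:**
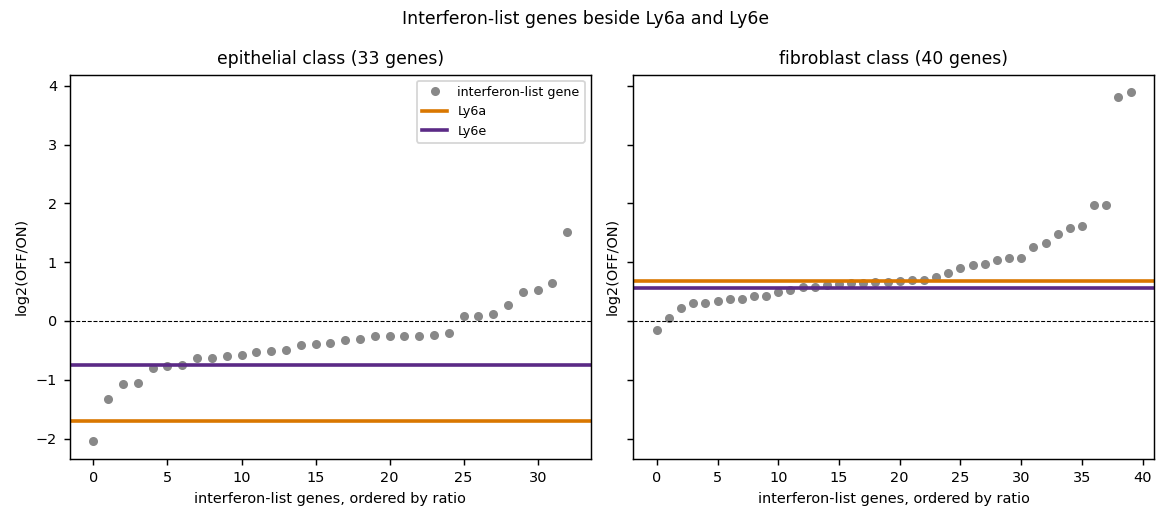
Log2 ratio OFF/ON of each measured interferon-list gene (grey points, ordered by ratio) in the epithelial class (33 genes) and the fibroblast class (40 genes), with the ratios of Ly6a (orange line) and Ly6e (purple line). In fibroblasts both lines run through the middle of the list, at 0.67 and 0.57. The fibroblast Ly6a value rests on 32 and 54 UMIs and was -0.12 with equal weight for each cell. In the epithelial class Ly6a, at -1.70, lies below all but 1 of the listed genes.

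Genes that build and attach the GPI anchor were nearly even. Of 31 listed, 29 were measured in the epithelial class, with a median log2 ratio of 0.03, beside -0.04 over all genes. Of these 17 were higher and 12 lower in Ptger4-OFF. None was past 2-fold, while of all genes measured in the class 4.18% were in Ptger4-ON and 2.89% in Ptger4-OFF. The lowest ratios were those of Pgap1, an anchor-remodelling enzyme, at 0.527 [0.482 to 0.577], Mppe1 at 0.535 and Pign at 0.801, and the highest those of Pgap3 at 1.55, Pigh at 1.54 and Gpaa1 at 1.41. In fibroblasts 20 were measured, 13 higher and 7 lower. Of these 1 was past 2-fold higher in Ptger4-ON, Pigt with 18 and 8 UMIs, beside 1.71% of all genes measured there. None was past it in Ptger4-OFF, beside 1.55%. Pigg and Pigm had ratios of 0.726 and 0.818, and Pign, Pigp and Pigq 1.39, 1.36 and 1.35; the intervals of these 5 and of Pigt included 1.

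The genes most like each member were sought over 17 points, the epithelial clusters and the fibroblast class of each library with at least 10 cells, by Pearson correlation of log2(CPM + 10) among about 4194 genes. The points share 2 libraries and differ in depth, and genes are not independent replicates, so the values are descriptions. Closest to Ly6a were Slc4a11 (0.92), Serpinb5 (0.91), Anxa10 (0.90) and Aprt (0.89). For Ly6c1 they were Agps (0.84), Ly6a itself (0.82), Slc4a11 (0.81) and Serpinb5 (0.80). For Ly6d they were Gml (0.97), Il1rn (0.97), Hemt1 (0.96) and Anxa10 (0.96). Hemt1 is listed in RefSeq as a synonym of Gml2, which overlaps Gml, so the rows may share reads: they held 100 and 87 UMIs in Ptger4-ON. Tmed5 (0.92), Tagln2 (0.89), Ccnd1 (0.89) and Cd9 (0.88) were closest to Ly6e. Between members the correlation was 0.76 for Ly6a with Ly6d, 0.44 for Ly6a with Ly6e and -0.02 for Ly6d with Ly6e.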

How the data were processed

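The authors deposited raw counts for each gene in each cell barcode, 7408303 counts in 908 barcodes (Ptger4-ON) and 9490205 in 1599 (Ptger4-OFF). Drop-seq is named in the labels, and STAR 2.6 and build mm10 in the submitters' processing notes. Which counting tool and annotation were used is not given in the sources used here. That the counts are UMIs follows from the Drop-seq protocol.

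Barcodes were kept with 300 genes or more and up to 20% mitochondrial counts (882 and 1564), and Scrublet in scanpy 1.11.5 called 6 and 4 doublets, which were removed. Of the rest, 6 and 17 cells had 20% to 80% of their class-rule UMIs on the collagen side. Leiden clusters (igraph 0.11.9, resolution 0.5, 30 principal components, 2000 variable genes, 15 neighbours) were made per class from both libraries without Ly6 family genes. UMIs were summed per class or cluster and library and divided by the total (CPM, exact Poisson interval). Ratios OFF/ON have exact conditional binomial intervals, shares exact Clopper-Pearson intervals. For log2 ratios 0.5 was added to both counts. A gene counted as measured with at least 20 UMIs over both libraries. A fold against 0 UMIs used 3 counts over the cluster. Positions and transcripts are from GENCODE vM21, and the ratio step was tested on simulated counts.

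Genes named are the 4 members, family genes with at least 20 UMIs in a class, the 3 highest and 3 lowest ratios of the interferon and GPI lists, the 4 genes most like each member, and fixed partners and markers. Ly6c2 was named outside this rule, after its values were seen, as the near copy of Ly6c1. Members and lists were chosen with earlier results of these data known. Alternatives were other filters, class rules, scalings (edgeR 4.0.16 TMM, median of ratios), weights, depths and clusterings.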

Additional observations from a re-analysis of the deposited data

Results flagged for a closer look

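These results moved in the opposite direction to the epithelial class as a whole. With 1 library per condition the differences between the groups were not tested. Ly6a was lower in Ptger4-OFF in the epithelial class, while its ratio OFF/ON was 1.60 in the fibroblast class and 1.51 in the Clu-led cluster. The fibroblast ratio was 0.917 with equal weight for each cell, and with the Ly6 family genes kept in the clustering the Clu-led ratio was 1.01 [0.941 to 1.08]. Ly6e was likewise lower in the epithelial class, with ratios of 1.48 in fibroblasts and 1.24 in the Clu-led cluster, the latter 1.03 [0.912 to 1.16] with the Ly6 family genes kept in the clustering. Ly6d was nearly even in the epithelial class and had a ratio of 2.51 in the Clu-led cluster.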

How the results depend on the processing

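No paired analysis was possible because each condition has 1 library. On the log2 scale, equal weight for each cell gave an epithelial OFF/ON ratio of -2.19 for Ly6a, -4.87 for Ly6c1 and -0.76 for Ly6d, and turned Ly6a in fibroblasts to -0.12. Leaving out barcodes over 50000 UMIs gave -1.39 for Ly6a and -0.014 for Ly6d. The cluster mixture of Ptger4-ON and of Ptger4-OFF was also set in both libraries, with all barcodes, added after seeing the data. The ratios were then -0.15 and -0.28 for Ly6a, -2.02 and -2.12 for Ly6c1, and -0.30 and -0.55 for Ly6e. For Ly6d they turned to 1.03 and 0.48. Unthinned, 69.6% of Ly6d-positive Ptger4-ON epithelial cells had Ly6a. In the cluster with the highest Clu level, resolution 1 gave Ly6d 2666 CPM in Ptger4-OFF. Keeping Ly6 genes in the clustering gave Ly6a 1572 and 1588, Ly6d 532 and 1907, Ly6c1 82.0 (Ptger4-ON) and Ly6e 548 CPM (Ptger4-OFF). The cause was not tested. Ly6e in fibroblasts ranged from 0.53 to 0.62 over 15 alternatives, with 1 direction. The TMM and median-of-ratios factors moved ratios by less than 0.04. No ratio could be made for Ly6c1 in fibroblasts, with 0 and 1 UMIs. Ly6c1 rests on 165 and 18 epithelial UMIs.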
